A study of Mus musculus with 16 samples.

Results

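The transcriptomes of mouse CD4+ T cells given a miR-24 or a miR-27a mimic were compared with those of cells given a miR-23a mimic or a control mimic. The mean of the miR-24 and miR-27a groups (8 libraries) was set against the mean of the miR-23a and control groups (8 libraries), which together are all 16 libraries of the series. Of 23337 gene symbols, 12952 had enough reads to be tested. A gene was reported as changed when its adjusted p was under 0.05 and its 4 pairwise differences (each of miR-24 and miR-27a against each of miR-23a and control) shared one sign. This left 646 of the 12952 genes, 362 higher and 284 lower with miR-24 and miR-27a.

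All groups were C57BL/6 cells of the genotype Dgcr8f/f Tbet-/- CD4-cre, so the controls carried the same deletions as the other groups. Dgcr8 is needed to process most microRNAs, and Cre driven by Cd4 removes it in T cells. Tbet (Tbx21) is the transcription factor that drives Th1 differentiation. CD4+ cells from spleen and lymph nodes were activated through CD3 and CD28 with 10 U/ml IL-4 for 3 days and kept in 20 U/ml IL-2 for a further 2 days. They received 500 nM of a mimic, a synthetic double-stranded microRNA, on day 1 and again on day 4. Between 150000 and 800000 live cells marked by the RosaYFP reporter of Cre activity were then sorted. Each mimic (miR-24, miR-27a, miR-23a, control) had 4 libraries. The labels speak of biological replicates without tying a library to a mouse. In the main fit, p-values measure the spread between libraries that is left after a term for replicate number. That spread may in part be technical.

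MicroRNAs guide Argonaute proteins to messenger RNAs through their seed, the bases near the 5′ end, and a seed match in the 3′UTR lowers transcript level or translation. miR-23a, miR-27a and miR-24 are cut from one primary transcript, and a paralogous cluster yields miR-23b, miR-27b and a second copy of miR-24. The IL-4 given here drives Th2 differentiation, in which STAT6 and GATA3 open the Il4, Il5 and Il13 locus. The study named miR-24 and miR-27 as the members linked to Th2 control, and the comparison puts them against the cluster member and the control mimic not so linked.

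The labels do not state the arm of each mimic. The 3p arms were assumed, and their mature sequences from RefSeq (GRCm38.p6) are shown because the seeds, in capitals, define the sites counted below. miR-24 is encoded on chromosome 8 (chr8:84208875-84208896) and in a second copy on chromosome 13 (chr13:63301251-63301272), miR-27a at chr8:84208727-84208747 and miR-23a at chr8:84208563-84208583, all on the plus strand.
miR-24-3p: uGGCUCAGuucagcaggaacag
miR-27a-3p: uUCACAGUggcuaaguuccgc
miR-23a-3p: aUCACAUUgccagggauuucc
The 3 seeds differ, and those of miR-27a and miR-23a share the bases that open them. The 8mer site of miR-24 is CTGAGCCA, that of miR-27a ACTGTGAA and that of miR-23a AATGTGAA. A site here is this 8mer or either of its 7mers (its first 7 or last 7 bases), read on the transcript strand of the longest annotated 3′UTR of a gene.

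Reads in genes numbered 2120408 to 13714841 in 15 libraries and 51474 in control replicate 1, where 1 read is worth 16.3 CPM (read counts scaled to a common library size by TMM). A gene at 0 in that library may therefore be at up to 48.8 CPM, counting error only. Gene reads, genes with a read, the share of Rn45s (ribosomal RNA precursor) and the shares of reads counted to no gene or placed more than once gave exact permutation p of 0.170 to 0.844 between the 8 and the 8 libraries (two-sided, 5 measures, adjusted p 0.444 or more). Such p-values cannot show that the sides are equal. The Rn45s share had a median of 6.61% (up to 19.1%) with miR-24 and miR-27a and 2.21% (up to 10.5%) in the other 8 libraries. Dgcr8 stood at 33.4 to 58.4 CPM with miR-24 and miR-27a and at 32.5 to 114 CPM in the other 8 libraries, but gene counts do not separate a transcript without the deleted exon. Tbx21 stood at 0 to 5.18 and 0 to 5.20 CPM.

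Over all genes, 709 of 12952 (5.47%) had an adjusted p under 0.05 by edgeR's quasi-likelihood test, 394 higher (3.04%) and 315 lower (2.43%). The 646 with one sign are 4.99% of the genes tested, 2.79% higher and 2.19% lower. For 214 of them (1.65%), 128 higher (0.988%) and 86 lower (0.664%), each of the 4 differences also had an unadjusted p under 0.05. The fit holds the replicate number as a term, and without that term 173 genes were called (1.34%), 164 with one sign (1.27%), all 164 of them among the 646. The 4 pairwise differences share samples and called 697 genes for miR-24 against miR-23a (5.38%), 591 against control (4.56%), 382 for miR-27a against miR-23a (2.95%) and 398 against control (3.07%). The count also moved by over 1.5 times without any of 5 libraries: leaving out miR-23a replicate 3 gave 419, replicate 1 or 3 of miR-24 1052 or 397, miR-27a replicate 3 gave 348 and control replicate 3 gave 385. With limma and sample weights the balance of one-sign genes turned, to 323 higher and 361 lower, and with a stricter filter on low counts it was 397 higher and 238 lower. For genes given with their log2 difference in this comparison, the adjusted p without the replicate term is printed where the call was lost.

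Ikzf1, which encodes the zinc-finger factor Ikaros of lymphocytes, was lower in all 8 libraries of miR-24 and miR-27a than in any of the other 8. It stood at 1060.0, 924, 832 and 826 CPM with miR-24 and 651, 656, 554 and 834 CPM with miR-27a. With miR-23a it stood at 1291, 1283, 1426 and 1362 CPM and with the control mimic at 1351, 1278, 1339 and 1570.0 CPM. The groups did not overlap, as was so for 26 genes (0.201% of those tested), 8 of them lower (0.0618%), and for 47 (0.363%) when control replicate 1 was left out. The log2 difference was -0.80 ± 0.12 (SE, 16 libraries, adjusted p 0.000578). The pairwise log2 differences were -0.56 and -0.60 with miR-24 and -1.0 and -1.05 with miR-27a.

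Gata3, the master regulator of Th2 cells, was also lower, by a similar size with either mimic. It stood at 89.7, 133, 203 and 269 CPM with miR-24, 98.4, 99.6, 234 and 261 CPM with miR-27a, 212, 191, 404 and 274 CPM with miR-23a and 179, 181, 453 and 309 CPM with the control mimic. Libraries numbered 3 and 4 were higher than those numbered 1 and 2 in every group, and within each number both mimics lay below both comparison libraries. The log2 difference was -0.70 ± 0.14 (adjusted p 0.0063, and 0.284 without the replicate term), with pairwise values of -0.69 and -0.68 with miR-24 and -0.73 and -0.72 with miR-27a.

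Il10, which encodes an anti-inflammatory cytokine made by Th2 cells, fell most with miR-27a. Its values were 7.02, 116, 94.1 and 152 CPM with miR-24 and 2.9, 16.9, 21.8 and 81.4 CPM with miR-27a. They were 31, 108, 213 and 212 CPM with miR-23a and 65.1, 154, 337 and 228 CPM with the control mimic, 4 reads in control replicate 1. Within each replicate number, both miR-24 and miR-27a were below the control mimic, although miR-24 replicate 2 was above miR-23a replicate 2. The log2 difference was -1.86 ± 0.28 (adjusted p 0.000975, 0.23 without the replicate term).

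Among the Th2 effector cytokines Il4, Il5 and Il13, none was called with one sign. Il13 had 4 differences of one sign but was not called (log2 difference 0.71 ± 0.38, adjusted p 0.328), with a lowest, median and highest value of 15.5, 125 and 674 CPM against 16.3, 75.5 and 194 CPM. Maf, a factor that drives Il4 and Il10, stood just outside the threshold (-0.70 ± 0.21, adjusted p 0.0533). Its differences from the control mimic were -1.31 ± 0.30 and -1.30 ± 0.30, and those from miR-23a were -0.10 ± 0.28 and -0.09 ± 0.28. The differences of Il4, Il5, Il4ra, Stat6 and Nfatc2 did not share one sign.

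**Figure D1:**
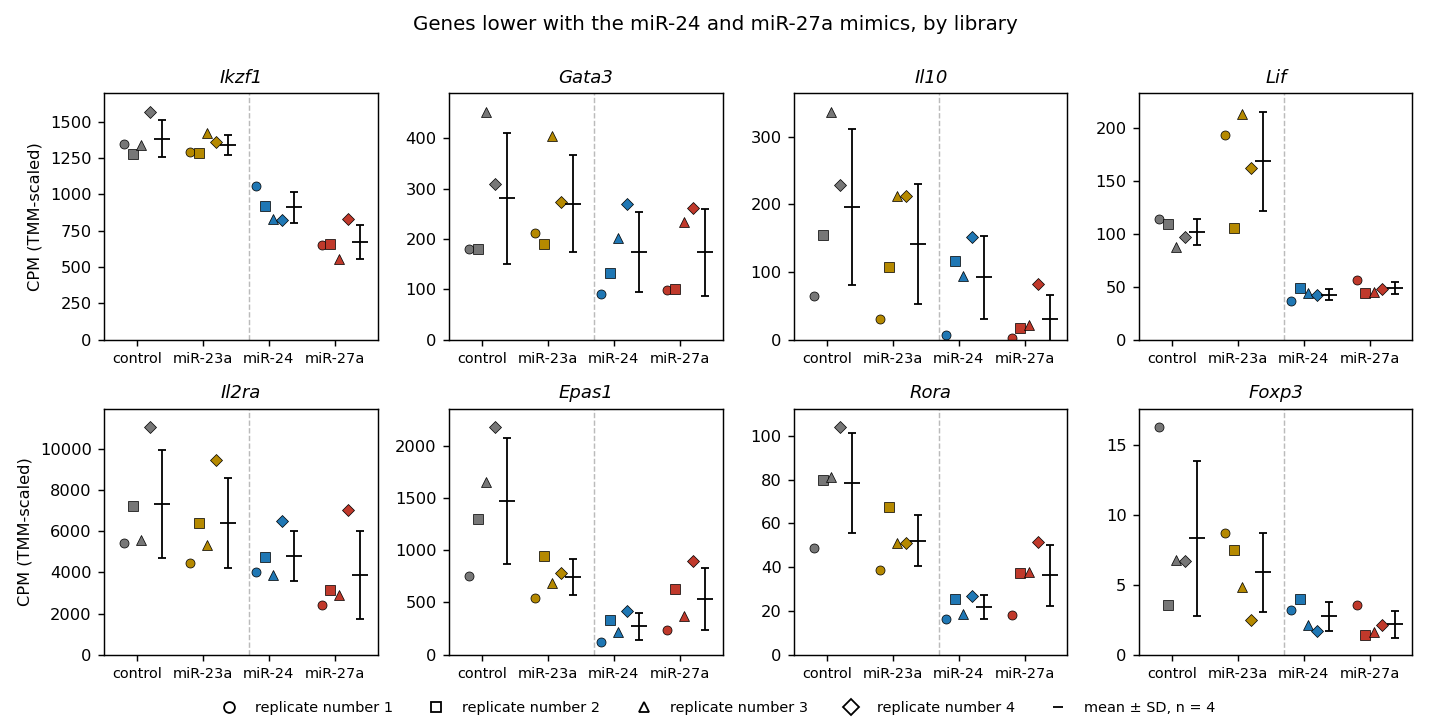
Scaled CPM (linear axis from 0) of 8 genes in each of the 16 libraries, by mimic, with the replicate number as the marker shape and mean ± SD (n = 4) as a bar cut at 0. Ikzf1 and Lif do not overlap between the sides of the dashed line, while Gata3, Il10 and Il2ra overlap and vary with the replicate number.

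Lif, Epas1 and Il2ra were further members of the Th2 list that fell. Lif, a cytokine of the IL-6 family, stood at 36.1, 44.5 and 56.5 CPM (lowest, median and highest of 8) against 87.3, 112 and 213 CPM, without overlap (log2 difference -1.52 ± 0.15, adjusted p 2.66e-05). Epas1, which encodes the hypoxia-inducible factor HIF-2α, stood at 125, 349 and 898 CPM against 547, 867 and 2180.0 CPM (-1.57 ± 0.16, adjusted p 2.66e-05). Il2ra, the α chain of the IL-2 receptor, stood at 2415, 3950.0 and 7036 CPM against 4438, 5979 and 11070.0 CPM (-0.68 ± 0.12, adjusted p 0.002, 0.211 without the replicate term).

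Of 36 tested members of the Th2 list, 10 fell and 1 rose, against 2.19% and 2.79% of all genes. This list and those below were chosen with earlier results of these data known, so their counts are not independent evidence. The list's median log2 difference was -0.52 and that of all genes tested 0.00. Besides Epas1, Gata3, Ikzf1, Il10, Il2ra and Lif, the members that fell were Il17rb, Nfil3, Pparg and Tcf7, and the one that rose was Bhlhe40, a factor needed for T helper cytokine production. Of these, Il17rb, Nfil3 and Pparg are named after their values were seen. Without control replicate 2 the count that rose was 2. Without the replicate term 4 fell and none rose by edgeR, while 16 and 3 had an unadjusted p under 0.05 with one sign in the fit that holds it. The libraries' summed CD4 T cell markers moved in the same direction: Cd3e, Cd3d, Cd3g, Cd4, Cd5 and Cd28, the 6 of 8 listed markers in the files, summed to 2567, 3097 and 3308 CPM (lowest, median and highest) with miR-24 and miR-27a and to 3175, 3800 and 4710 CPM in the other 8 libraries (exact permutation p 0.00124, adjusted over 11 marker sums 0.0137, two-sided). Only Cd28 of the 6 was called, and the other 5 summed to 1427 ± 104 CPM with miR-24, 2017 ± 127 with miR-27a, 1998 ± 236 with miR-23a and 1963 ± 271 with control (mean ± SD, n = 4), so that without Cd28 the mean with miR-24 was below the others and that with miR-27a was not. None of the 6 was at 0, their part in the result was not tested, and in bulk RNA fewer cells of a type cannot be told apart from less RNA per cell.

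No member of the IL-4 receptor and STAT6 list (18 tested) was called by edgeR's quasi-likelihood test, against 4.99% of all genes, and without control replicate 2 there were 2 higher. At that share, so small a list may hold none. At an unadjusted p under 0.05 it held 2 higher and 1 lower member with one sign, and DESeq2 called 1 higher and limma none. Its median log2 difference was 0.01.

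**Figure D2:**
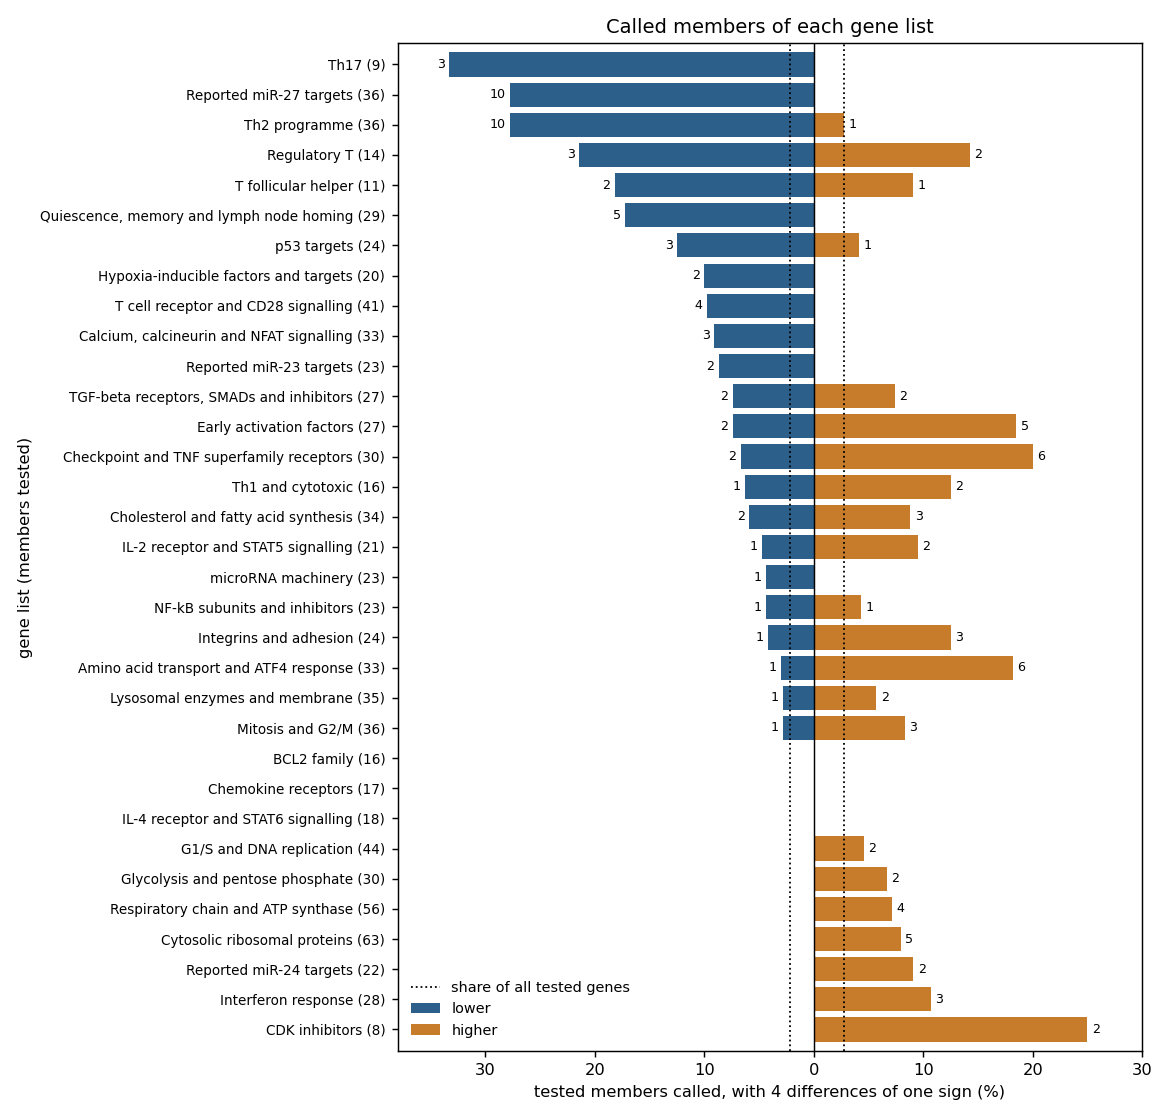
Percentage of tested members of each of 33 gene lists (number tested in brackets) that were called with one sign, lower to the left and higher to the right, with counts at the bars and dotted lines at the 2.19% and 2.79% of all genes. The lists of Th2 genes and of reported miR-27 targets hold 10 lower members each.

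Reported targets of each microRNA were counted next. The list for miR-27, written from general knowledge, may hold genes reported from these same libraries, so its direction is not independent evidence. Of its 36 tested members 10 fell and none rose by edgeR (with none higher at an unadjusted p under 0.05, by DESeq2 or by limma): Fbxw7, Foxo1, Foxp3, Gata3, Ikzf1, Pparg, Rora, Runx1, Sfrp1 and Smad3. The median was -0.18, and 2 fell without the replicate term. The 10 were 27.8% of the list, against 2.19% of all genes. Fbxw7, Foxo1, Pparg and Runx1 are named after their values were seen. Rora, a nuclear receptor shared by Th17 cells and type 2 innate cells, stood at 16.2, 26.3 and 51.8 CPM against 38.6, 59.3 and 104 CPM (-1.21 ± 0.15, adjusted p 0.000106). Sfrp1, a secreted Wnt inhibitor, stood at 11.4, 81.3 and 179 CPM against 0, 221 and 741 CPM, the 0 being control replicate 1 (-1.65 ± 0.20, adjusted p 0.000106, 0.208 without the replicate term). Smad3, which carries TGF-β signals, had a log2 difference of -0.59 ± 0.13 (adjusted p 0.0114, 0.268 without the replicate term). Foxp3, the factor of regulatory T cells, was low throughout, at 1.41, 2.11 and 3.95 CPM against 2.45, 6.73 and 16.3 CPM, where 16.3 CPM is 1 read of control replicate 1. It had a log2 difference of -1.34 ± 0.30 (adjusted p 0.0131, 0.0729 without the replicate term and 0.0510 without control replicate 4).

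The list for miR-24 (22 tested) held no lower and 2 higher members, Cdkn2a and Tnfsf9, and 1 lower member at an unadjusted p under 0.05 (none lower by DESeq2 or limma). Its median was 0.12, and 1 rose without control replicate 2 or without the replicate term, where Tnfsf9 was not called (adjusted p 0.152). That for miR-23 (23 tested) held 2 lower members, Ccng1 and Smad3, and none higher (2 higher at an unadjusted p under 0.05 and 2 by DESeq2). Without any one of 8 libraries (miR-23a replicates 2 and 4, miR-24 replicates 2 to 4 and miR-27a replicates 1 to 3) the count of 2 was 1, and without the replicate term it was 0 (Ccng1 then had an adjusted p of 0.119). The called shares were 9.09% of the miR-24 list, against 2.79% of all genes higher. For the miR-23 list the share was 8.7%, against 2.19% of all genes lower.

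Seed sites of both microRNAs were more frequent in the 3′UTRs of the genes that fell than in those of all genes tested. Of 275 lower genes with an annotated 3′UTR (of 284), 193 (70.2%) held a site of miR-24 or miR-27a, against 5440 of 12005 (45.3%) of all tested and 112 of 358 (31.3%) of those that rose. Sites of both stood in 83 lower genes (30.2%), against 11.4% of all and 7.26% of the higher ones. A miR-27a site, with or without one of miR-24, stood in 58.2% of lower, 29.8% of all and 22.9% of higher genes, and a miR-24 site, with or without one of miR-27a, in 42.2%, 27.0% and 15.6%. An 8mer of either was in 32.4% of lower, 14.6% of all and 6.42% of higher genes. The miR-23a site stood in 29.5% of lower, 25.3% of all and 29.6% of higher genes, and its 8mer in 7.27%, 7.24% and 12.3%. These are descriptions with no test, since a longer 3′UTR holds more sites, and the median length was 1881 bases for lower, 1236 for all and 1059 for higher genes.

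Within ranges of 3′UTR length the order for miR-24 and miR-27a stayed. Below 1000 bases 36.4% of 66 lower genes held a site of miR-24 or miR-27a, against 20.7% of all and 14.1% of 170 higher genes. From 1000 to 2000 bases the shares were 58.4%, 48.7% and 32.3%, and above 2000 bases 93.9%, 76.1% and 62.0%. For the miR-23a site the shares of lower, all and higher genes were 10.6%, 8.94% and 13.5% below 1000 bases, 18.2%, 24.8% and 32.3% from 1000 to 2000 bases and 45.5%, 48.0% and 56.5% above, so that the higher genes lay above all genes in each range. Without the replicate term, 71.4% of 70 lower genes held a site of miR-24 or miR-27a. Grouped the other way, 6.05% of genes with sites of both were called lower with one sign, as were 3.50% with a miR-27a site alone, 1.77% with a miR-24 site alone and 1.25% with neither. Called higher with one sign were 1.89%, 2.55%, 1.61% and 3.75% of these classes. Their median log2 differences were -0.08, -0.05, -0.02 and 0.06. Their median 3′UTR lengths were 3085, 1890, 1744 and 735 bases, and this grouping was not split by length.

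**Figure D3:**
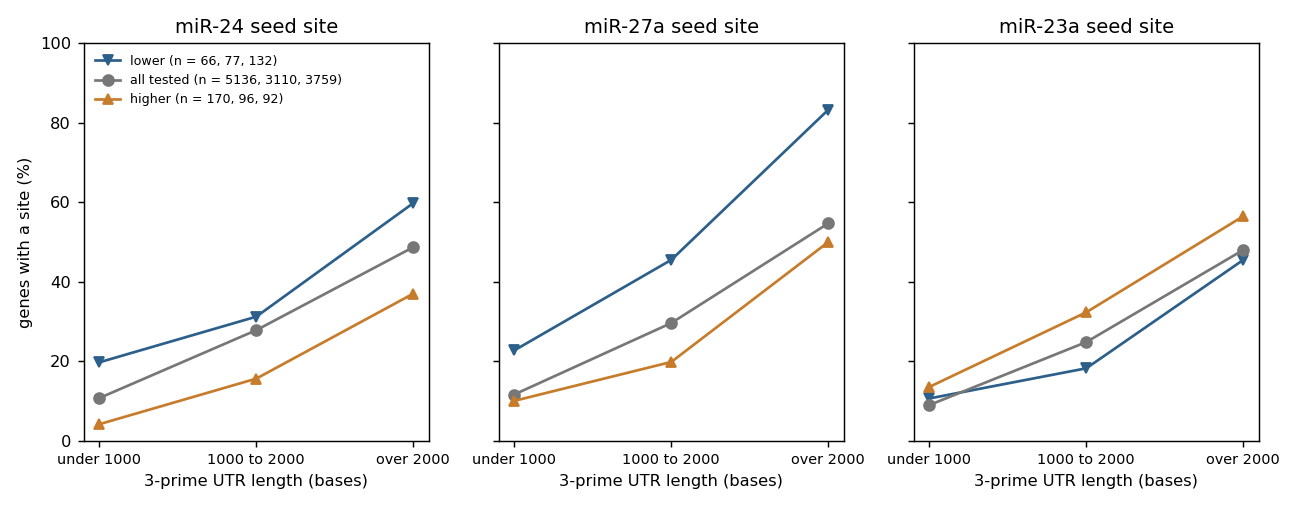
Percentage of genes whose 3′UTR holds a 7mer or 8mer site of miR-24, miR-27a or miR-23a (panels), in 3 ranges of 3′UTR length, for genes called lower, all tested genes and genes called higher with miR-24 and miR-27a. The lower genes lie above all genes for miR-24 and miR-27a in each range and, for miR-23a, above them only below 1000 bases.

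Among the lower genes with sites of both microRNAs, leaving out predicted genes, Adam19, Alg11, Ikzf1, P2rx7, Sfrp1 and Tcf7 had the smallest p. The best sites of 5 of them, and one of Gata3, are shown with the bases around them (GENCODE M21, GRCm38), the site in capitals, to let the matches be read beside the values.
Ikzf1, miR-24 7mer-A1, chr11:11770004-11770010, plus strand: gccactggggtTGAGCCAtctcagggagc
Ikzf1, miR-27a 8mer, chr11:11772859-11772866, plus strand: ctatggcactcACTGTGAAtaagtgtgacc
P2rx7, miR-24 8mer, chr5:122682692-122682699, plus strand: gctcttaactaCTGAGCCAtctctccacct
P2rx7, miR-27a 7mer-m8, chr5:122682314-122682320, plus strand: aagtcactagtACTGTGAgaaaccggttg
Adam19, miR-24 7mer-m8, chr11:46144480-46144486, plus strand: ctgtgtcccctCTGAGCCgttatgccaaa
Adam19, miR-27a 8mer, chr11:46145795-46145802, plus strand: catgacattatACTGTGAAgtgtaagagga
Alg11, miR-24 7mer-A1, chr8:22069628-22069634, plus strand: ggactgacataTGAGCCAaagaccgccta
Alg11, miR-27a 8mer, chr8:22071387-22071394, plus strand: ttgataacacaACTGTGAAgtatccgttac
Tcf7, miR-24 7mer-m8, chr11:52252711-52252717, minus strand: caaacttaaccCTGAGCCttgaaaaacaa
Tcf7, miR-27a 7mer-A1, chr11:52252431-52252437, minus strand: cagggggacctCTGTGAAttccaagacaa
Gata3, miR-27a 7mer-A1, chr2:9858098-9858104, minus strand: ggtctctagtgCTGTGAAaaaaatattgc
Ikzf1 held 3 sites of each microRNA. Gata3 held 2 sites of miR-27a, both 7mers, and none of miR-24 in this 3′UTR, while its log2 differences with the 2 mimics were close. P2rx7, an ATP-gated ion channel of T cells, stood at 2.09, 5.86 and 13.9 CPM against 8.1, 19.3 and 37.3 CPM (-1.65 ± 0.22, adjusted p 0.000338). Adam19, a membrane metalloproteinase, stood at 13.7, 18.4 and 40 CPM against 26.2, 52.1 and 80 CPM (-1.30 ± 0.20, adjusted p 0.000762). Alg11, a mannosyltransferase of N-glycan assembly, stood at 35.6, 53 and 92.6 CPM against 79.5, 98.6 and 146 CPM (-0.98 ± 0.15, adjusted p 0.000793). Its differences from miR-23a and control were called with miR-27a (-1.23 ± 0.21 and -1.56 ± 0.22). With miR-24 they were not called (-0.39 ± 0.20 and -0.72 ± 0.22, adjusted p 0.324 and 0.0619). In P2rx7, Adam19 and Alg11 the median was lower with miR-24 and miR-27a while the ranges of the 8 and the 8 libraries overlapped. Tcf7 was not called with miR-27a against miR-23a or control, as given below.

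Among the 12 largest falls by the naming rule, Il21, a cytokine of follicular and Th17 cells, stood at 2.34, 22.7 and 81.5 CPM against 0, 54.7 and 160.3 CPM (-1.41 ± 0.22, adjusted p 0.000856, 0.513 without the replicate term). Cd27, a costimulatory receptor of the TNF family, stood at 7.25, 24.7 and 38.2 CPM against 16.3, 58.1 and 123 CPM (-1.44 ± 0.24, adjusted p 0.00151, 0.116 without the term). Cd24a, a small surface sialoglycoprotein, had a log2 difference of -1.53 ± 0.23 (adjusted p 0.000739, 0.316 without the term). Nipal1, a magnesium transporter, had the lowest value of the rule, -2.29 ± 0.25 (adjusted p 5.85e-05), at 3.55, 5.96 and 10.7 CPM against 0, 30.8 and 49.2 CPM. The others were Myo6, an actin motor (-1.73 ± 0.20), Chst2, a sulfotransferase of L-selectin ligands (-1.40 ± 0.20), and Itgb3, the β3 integrin (-1.35 ± 0.19), with adjusted p of 5.86e-05, 0.000578 and 0.000578.

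Some genes of T cell quiescence fell as well. Of 29 tested, Btg2, Foxo1, Igfbp4, Klf2 and Tcf7 fell and none rose by edgeR (none higher at an unadjusted p under 0.05, by DESeq2 or by limma), with a median of -0.21. The count of 5 was 3 without miR-23a replicate 3, 2 without miR-27a replicate 3 and 1 without the replicate term. Klf2, a factor of lymph node homing, had a log2 difference of -0.77 ± 0.17 (adjusted p 0.012, 0.0937 without the replicate term), and Btg2, an antiproliferative factor, -1.0 ± 0.20 (adjusted p 0.00627, 0.0729 without it). Of 41 genes of T cell receptor and CD28 signalling, Cd28, Dgka, Sh2d2a and Ubash3a fell and none rose by edgeR (2 higher at an unadjusted p under 0.05, 1 by DESeq2 and 1 by limma), and none fell without the replicate term. Cd28, the costimulatory receptor, stood at 795, 1178 and 1745 CPM against 1114, 1941 and 2620.0 CPM (-0.58 ± 0.11, adjusted p 0.00363, 0.0916 without the term). Its differences from miR-23a and control were called with miR-27a (-0.68 ± 0.15 and -1.02 ± 0.15). With miR-24 they were not called (-0.13 ± 0.15 and -0.47 ± 0.15, adjusted p 0.732 and 0.0841). Of 33 genes of calcium and NFAT signalling 3 fell, Atp2b1, Itpr1 and Orai2, a count that was 1 without miR-27a replicate 3 and 0 without the replicate term. The called shares of the quiescence, T cell receptor and calcium lists were 17.2%, 9.76% and 9.09%, against 2.19% of all genes lower. Foxo1, Igfbp4 and Dgka are named after their values were seen.

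Among the genes that rose, Dab2 and Anxa1 had the highest log2 differences of the naming rule. Dab2, an endocytic adaptor, stood at 179.8, 31.6, 35.2 and 47.7 CPM with miR-24 and 44.5, 16, 24.6 and 69.8 CPM with miR-27a, against 0.986, 1.14, 0.264 and 7.49 CPM with miR-23a and 0, 8.53, 0.811 and 7.01 CPM with the control mimic. All 8 libraries lay above the other 8, as was so for 18 genes (0.139%), although the 0 of control replicate 1 may stand for up to 48.8 CPM. The log2 difference was 3.87 ± 0.55 (adjusted p 0.00106). Anxa1, the phospholipid-binding annexin A1, stood at 92.2, 132, 179 and 141 CPM and 57.1, 45.6, 217 and 93.2 CPM against 4.21, 13.4, 49.1 and 33 CPM and 16.3, 14, 55 and 35.5 CPM (2.34 ± 0.25, adjusted p 5.86e-05). Replicate 3 of miR-23a and of control lay above miR-27a replicate 2, while within each replicate number both mimics were above both comparison libraries.

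Angptl2, a secreted angiopoietin-like protein, rose by 2.32 ± 0.21, and Tns1, a focal adhesion protein, by 1.66 ± 0.18 (adjusted p 1.18e-05 and 5.85e-05). Capn5, a calpain protease, rose by 1.56 ± 0.22 and Fam129b by 1.49 ± 0.22 (adjusted p 0.000472 and 0.000627). Tspan2, Dennd3, Timd2, Tead1 and Rai14 rose by 1.43 to 1.86 and were not called without the replicate term (adjusted p 0.407, 0.16, 0.197, 0.0526 and 0.28). The 7 fibroblast and stromal markers, chosen after the data were seen, all had medians under 1 CPM and summed to 0 to 1.44 CPM with miR-24 and miR-27a and 0 to 2.29 CPM in the others. The 6 endothelial markers, chosen in the same way, summed to 42.1 to 183 CPM against 49.1 to 122 CPM, 5 of them with medians under 1 CPM. Their mean sums were 54.4 CPM with miR-24, 132 with miR-27a, 81.6 with miR-23a and 91.6 with control, and their part in these results was not tested.

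**Figure D4:**
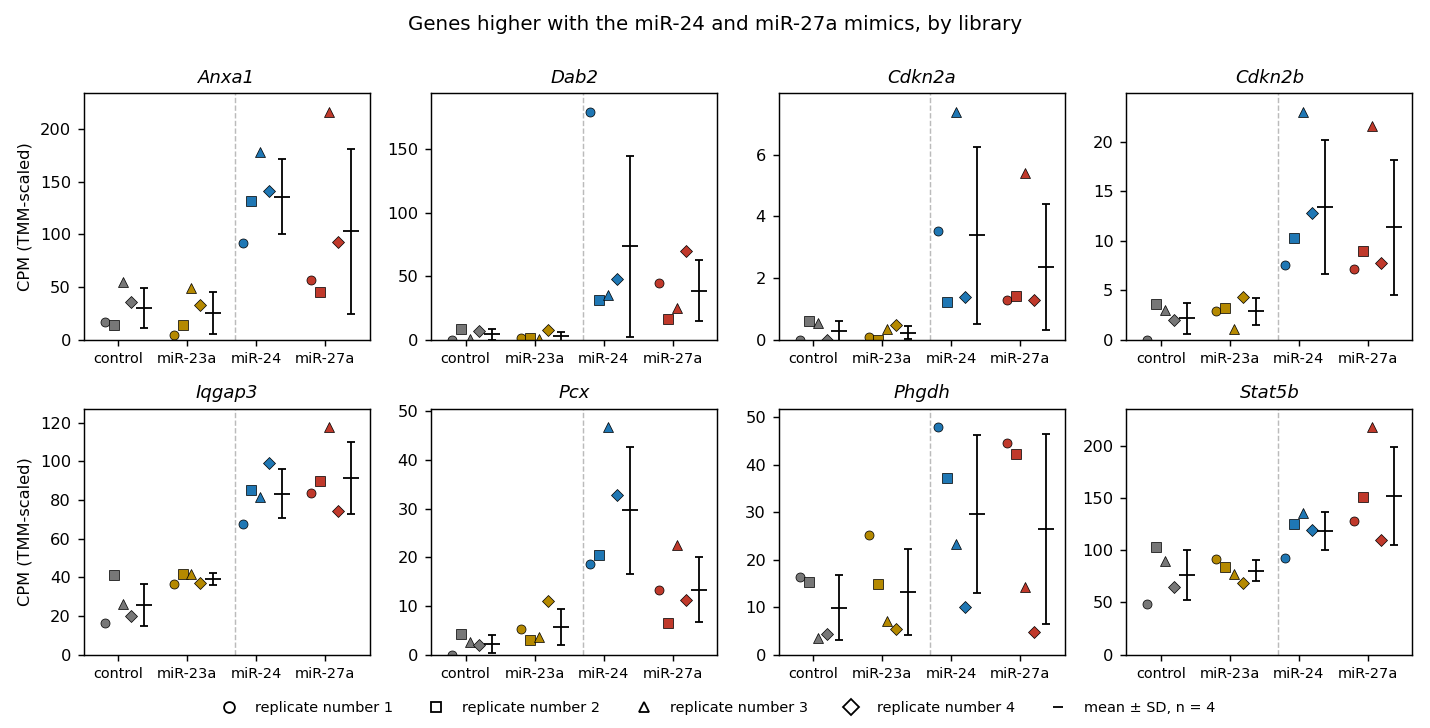
Scaled CPM (linear axis from 0) of 8 genes that rose, in each of the 16 libraries, by mimic, with the replicate number as the marker shape and mean ± SD (n = 4) as a bar cut at 0. Dab2, Cdkn2a, Cdkn2b and Iqgap3 do not overlap between the sides of the dashed line.

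Cdkn2a and Cdkn2b, genes of cyclin-dependent kinase inhibitors, rose. Cdkn2b (p15) stood at 7.1, 9.6 and 23 CPM against 0, 2.92 and 4.28 CPM (2.06 ± 0.33, adjusted p 0.00116). Cdkn2a, which encodes p16 and p19Arf, stood at 1.23, 1.4 and 7.39 CPM against 0, 0.221 and 0.588 CPM (2.93 ± 0.55, adjusted p 0.00357), resting on 12 reads in the control libraries and 11 with miR-23a. Neither had a read in control replicate 1, where 0 reads may stand for up to 48.8 CPM. For each, the 8 libraries did not overlap with the other 8, nor with the 7 left without control replicate 1. They were 2 of 8 tested inhibitors, none lower by edgeR (1 lower at an unadjusted p under 0.05, none by DESeq2 or limma). Iqgap3, a scaffold of dividing cells, stood at 67.8, 84.5 and 118 CPM against 16.3, 36.7 and 41.7 CPM without overlap (1.42 ± 0.16, adjusted p 5.85e-05). Of 36 mitosis genes Anln, Cdc20 and Iqgap3 rose and Cdc25b fell, and 1 rose without any one of 7 libraries (miR-23a replicate 3, miR-24 replicates 3 and 4, miR-27a replicates 1 to 3, control replicate 3) and without the replicate term. Called members were 25% of the inhibitors, against 2.79% of all genes higher, and 11.1% of the mitosis genes, against 4.99% in either direction. Cdc20 is named after its values were seen.

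Some amino acid genes of the ATF4 response rose. Of 33 tested, Asns, Atf5, Phgdh, Slc1a4, Slc7a6 and Yars rose and Slc43a1 fell, with a median of 0.42. The count of 6 was 3 without any of miR-23a, miR-24 or miR-27a replicate 3, 1 without control replicate 3 and 2 without the replicate term. Slc43a1 stayed called without any 1 library (adjusted p up to 0.0298). Its 4 differences did not share one sign without miR-23a replicate 2 or miR-27a replicate 2. Phgdh, the first enzyme of serine synthesis, stood at 4.84, 30.3 and 48 CPM against 3.6, 11 and 25.3 CPM (1.25 ± 0.21, adjusted p 0.00202, 0.206 without the replicate term). Pcx, the pyruvate carboxylase, rose from a median of 3.28 to 19.5 CPM (2.23 ± 0.32, adjusted p 0.000671). Of 63 cytosolic ribosomal protein genes 54 had a positive log2 difference (median 0.29) and Rpl13, Rpl24, Rpl32, Rpl37 and Rps29 rose, none falling by edgeR (none lower at an unadjusted p under 0.05, by DESeq2 or by limma). The count of 5 was 8, 15 and 11 without miR-23a replicate 4, miR-24 replicate 1 and miR-27a replicate 4, 3 without miR-24 replicate 3 or control replicate 3, and 1 without the replicate term. Called members were 21.2% of the amino acid list, against 4.99% of all genes, and 7.94% of the ribosomal list, against 2.79% higher. Asns, Atf5, Slc1a4, Slc7a6, Rpl13 and Rpl37 are named after their values were seen.

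Of 30 checkpoint and TNF superfamily genes Cd200, Lta, Pdcd1lg2, Tnfsf11, Tnfsf8 and Tnfsf9 rose and Cd27 and Tnfsf14 fell, and without the replicate term none rose and 1 fell. Pdcd1lg2, the PD-1 ligand PD-L2, stood at 79.9, 149 and 231 CPM against 65.1, 91.1 and 139 CPM (0.76 ± 0.14, adjusted p 0.00364, 0.0721 without the term). Stat5b, which carries IL-2 signals, rose by 0.72 ± 0.14 (adjusted p 0.00526) while Il2ra fell. Il18rap, a chain of the IL-18 receptor, rose by 1.49 ± 0.19 (adjusted p 0.000168), and Eomes, a T-box factor of cytotoxic cells, by 1.62 ± 0.33 (adjusted p 0.00754, 0.536 without the term). Against control alone Eomes was not called with either mimic, at 0.75 ± 0.47 and 0.99 ± 0.49 (adjusted p 0.397 and 0.246), while its mean was 7.52 CPM with miR-23a and 25.6 CPM with control (log2 difference -1.51 ± 0.49, adjusted p 0.156). Eomes is also 1 of 5 NK markers, whose sum was 4.57 to 80.6 CPM against 1.91 to 64.7 CPM. Of the others, Ncr1 and Klra8 were at 0 in all libraries and Klrb1c had a median under 1 CPM. The 2 CD8 T cell markers had mean sums of 22.2 CPM with miR-24, 21.3 with miR-27a, 11.6 with miR-23a and 16.1 with control. Between the sides they gave an exact permutation p of 0.0892 (adjusted p 0.353), and their part in the rise of Eomes was not tested. Of 28 interferon-response genes Cxcl10, Dhx58 and Oasl2 rose and none fell by edgeR (1 lower at an unadjusted p under 0.05, none by DESeq2 or limma). By limma with sample weights 1 rose, and Oasl2 and Dhx58 were not called (adjusted p 0.0544 and 0.0649). Oasl2 rested on 21 reads in the control libraries and 57 with miR-23a. Cxcl10, a chemokine, stood at 2.42, 4 and 10.7 CPM against 0, 1.25 and 1.83 CPM (1.96 ± 0.42, adjusted p 0.00844). Dhx58 was not called without miR-24 replicate 2 or 3 or miR-27a replicate 4, nor without the replicate term (adjusted p 0.0766), where 2 rose. The 8 dendritic cell markers summed to 62.7 to 104 CPM with miR-24, 36.2 to 48.9 CPM with miR-27a and 32.6 to 57.4 CPM in the other 8 libraries, with Clec9a, Flt3, Siglech and Zbtb46 at medians under 1 CPM, and their part in these results was not tested. Called members were 26.7% of the checkpoint list, against 4.99% of all genes, and 10.7% of the interferon list, against 2.79% higher. Cd200, Tnfsf11, Tnfsf8 and Tnfsf14 are named after their values were seen.

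**Figure D5:**
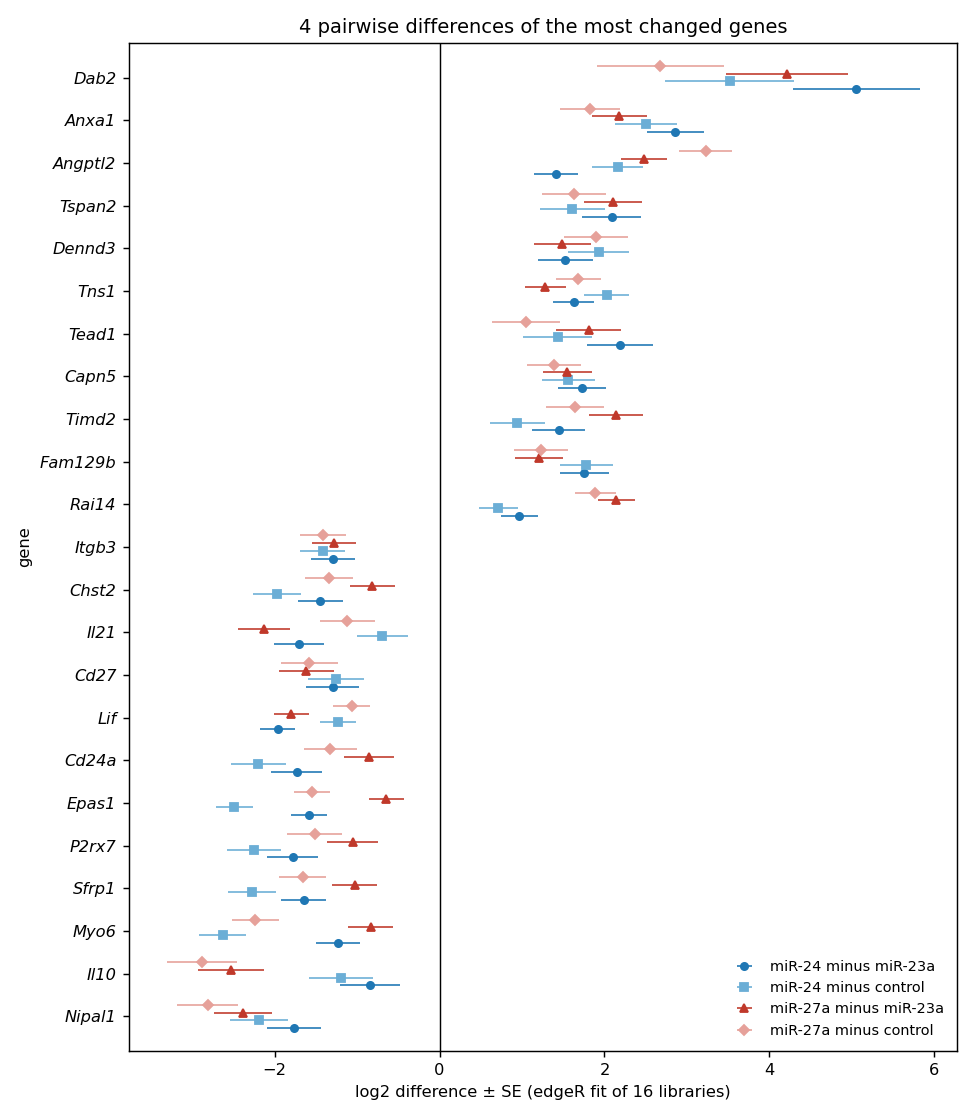
The 4 pairwise log2 differences (± SE, one fit of 16 libraries) of 11 of the most raised and the 12 most lowered genes of the naming rule, with miR-24 in blue and miR-27a in red. All 4 points of a gene lie on one side of 0, which the rule requires. For Il10, Epas1, Angptl2 and Rai14 the mimics differed (edgeR, adjusted p under 0.05). Points spread for other genes too, such as Dab2 (2.68 to 5.05), whose mimics did not differ past that threshold.

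The mimics did not change these genes equally. Of the 646, 76 differed between miR-24 and miR-27a (adjusted p under 0.05, edgeR), as did 572 of all 12952 genes (4.42%). Of the 76, 56 had the larger change under miR-24 and 20 under miR-27a. Between miR-23a and control, 5 of the 646 differed, as did 55 of all 12952 genes (0.425%). Tcf7, which encodes the memory factor TCF-1, was lower with miR-24 than with miR-27a. It stood at 116, 160.3, 98.5 and 58.4 CPM with miR-24 and 572, 789, 357 and 308 CPM with miR-27a. With miR-23a it stood at 1112, 542, 675 and 269.7 CPM and with the control mimic at 505, 951, 614 and 325 CPM. The log2 difference between the mimics was -2.23 ± 0.25 (adjusted p 0.000163), and those of miR-27a from miR-23a and control, -0.34 ± 0.24 and -0.28 ± 0.24, were not called (adjusted p 0.543 and 0.5).

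Il10 was lower with miR-27a (log2 difference of miR-24 minus miR-27a 1.69 ± 0.39, adjusted p 0.0219, 0.466 without the replicate term) and Epas1 lower with miR-24 (-0.94 ± 0.22, adjusted p 0.0173, 0.316 without it). The first was not called without any one of miR-24 replicates 2 and 3 and miR-27a replicates 1 to 3 (adjusted p up to 0.111), nor the second without miR-24 replicate 2 or 3 or miR-27a replicate 2 or 4 (up to 0.0862). Il18rap rose more with miR-24 (1.31 ± 0.25, adjusted p 0.00638, and 0.0526 without miR-24 replicate 3), and Rai14, an actin-binding protein, rose more with miR-27a (-1.18 ± 0.22, adjusted p 0.00482, 0.543 without the replicate term). For Ikzf1, Gata3 and Lif the mimics did not differ past the threshold, with log2 differences of 0.44 ± 0.16, 0.04 ± 0.20 and -0.17 ± 0.21.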

How the data were processed

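The authors deposited raw read counts per gene symbol for each of the 16 libraries, with 5 summary lines that were left out here. RNA (1 ng) was amplified with NuGEN Ovation V2 and read as single 50-base reads, 4 libraries per lane, per the labels' protocols. Bowtie2, TopHat, DESeq and the build mm10 are listed, with no version, per the submitters' processing notes. The counter, annotation and strand setting are not given in the sources used here, so overlapping and antisense genes cannot be told apart.

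Counts of genes passing filterByExpr by group were TMM-scaled and fitted in edgeR 4.0.16 (R 4.3.3) with 4 group terms plus replicate number. The contrast was tested by the robust quasi-likelihood test, two-sided, Benjamini-Hochberg adjusted at 0.05. The term for replicate number follows from the comparison's definition. Over genes with mean log2-CPM above 5, same-numbered libraries of miR-24 or miR-27a and of miR-23a or control correlated above 0.1 in 15 of 16 cases (lowest 0.0304). Within the sides the lowest values were -0.121 for miR-23a with control and -0.0072 for miR-24 with miR-27a. The same-numbered library correlated best in 2 to 4 of 4 cases per pair of groups, so pairing is not established for every pair of groups. The labels do not say what the number marks.

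Named genes were the 12 highest and 12 lowest one-sign genes with each of 4 differences under 0.05 and mean log2-CPM of 3 or more, a set of Th2 genes, up to 3 members per list, and 6 genes with both sites. The members and lists were chosen with earlier results of these data known. Alternatives used DESeq2 1.42.0, limma 3.58.1 with sample weights, other scaling and filters, no replicate term, and leaving out libraries. Sites were searched in GENCODE M21, where 20953 symbols matched directly, 1884 by an older symbol and 492 not at all. The fit was tested on simulated data. A gene of the naming rule and the sites of another are not reported here.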

Additional observations from a re-analysis of the deposited data

Results flagged for a closer look

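In 10 of 160 groups of 4 libraries tested, 1 library stood apart from the other 3, and chance gives about 1 in 20. In miR-27a replicate 4, Cd24a stood at 131 CPM (the others 11.3 to 30) and Chst2 at 191 CPM (61.1 to 79.0). In miR-24 replicate 1, Dab2 stood at 180 CPM (31.6 to 47.7) and Tead1 at 220 CPM (55.8 to 72.2). In miR-23a replicate 4, Cd27 stood at 26.4 CPM (65.7 to 73.4) and Dab2 at 7.49 CPM (0.264 to 1.14), and in miR-23a replicate 1 Maf stood at 75.9 CPM (180 to 187). Gene reads numbered about 4090000 in miR-23a replicate 2 (11400000 to 12600000), about 7290 genes had a read in control replicate 1 (14200 to 14700), and the CD4 T cell marker sum was 2630 CPM in miR-27a replicate 1 (3140 to 3240).

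Among the named genes called in the comparison, 11 differed between the mimics themselves by the test of miR-24 minus miR-27a. The log2 difference was -2.23 for Tcf7, -1.18 for Rai14, -1.07 for Angptl2 and -0.939 for Epas1. It was 1.69 for Il10, 1.35 for Amica1, 1.31 for Il18rap, 1.13 for Tnfsf9, 1.06 for Lta, 0.842 for Alg11 and 0.548 for Cd28. Without the replicate term Tcf7 and Il18rap stayed called (adjusted p 0.0221 and 0.0417), and Tcf7 and Rai14 stayed called without any 1 library. That for Cd28 was lost in 14 of 16 fits without 1 library (adjusted p up to 0.188).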

How the results depend on the processing

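Without the replicate block (no pairing of libraries by number), 173 genes were called, 164 with one sign and 83 with each of 4 differences under 0.05. The pairwise counts were then 142 for miR-24 minus miR-23a, 110 for miR-24 minus control, 71 for miR-27a minus miR-23a, 22 for miR-27a minus control, 114 for miR-24 minus miR-27a and 17 for miR-23a minus control, against 697, 591, 382, 398, 572 and 55 with it. DESeq2 gave 1049, 1024, 693, 940, 985 and 363 for these 6, and 1051 and 939 for the main counts of 709 and 646. limma with sample weights gave 453 for miR-24 minus miR-23a, 978 for miR-24 minus miR-27a and 31 for miR-23a minus control. Without the 4 libraries numbered 1, miR-24 minus miR-23a gave 339, miR-24 minus control 1141 and miR-27a minus miR-23a 235. Leaving out 1 library at a time, the genes called ranged from 375 to 1163, those with one sign from 348 to 1052 and those with each of 4 under 0.05 from 134 to 263. The pairwise counts ranged from 262 to 796, 123 to 1490, 127 to 548, 51 to 1010, 190 to 737 and 12 to 334, in the order above. Of 90 named genes called, 66 stayed called in all 16 such fits, 57 were lost without the block, and none reversed under any setting. The causes were not tested. The depth of control replicate 1 limits what it says of genes under 48.8 CPM.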

Other observations

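Of 27 early activation factors, Bhlhe40, Fosl2, Ier3, Irf8 and Tnf rose and Dusp6 and Egr1 fell, and none of the 7 calls held without the replicate term. The count of 5 was 3 without miR-24 replicate 3 or control replicate 3 and 2 without miR-27a replicate 3. The count of 2 that fell was 0 without control replicate 3, and 1 without any one of 12 other libraries (all but miR-24 replicates 1 and 4 and control replicate 1). Egr1, an immediate early factor, stood at 10.3, 18.4 and 61.1 CPM (lowest, median and highest of 8) against 10.4, 52.7 and 129 CPM (-1.30 ± 0.26, adjusted p 0.00627, 0.176 without the replicate term). Bhlhe40 stood at 235, 513 and 1511 CPM against 209.5, 301 and 658 CPM (1.0 ± 0.21, adjusted p 0.00921, 0.199 without it). The 7 called members were 25.9% of the list, against 4.99% of all genes. Fosl2, Ier3, Tnf and Dusp6 are named after their values were seen.

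Tox2, a factor of follicular helper cells, was lower in all 8 libraries of miR-24 and miR-27a than in any other, at 0.334, 8.31 and 11.3 CPM against 16, 25.6 and 71.1 CPM (-1.84 ± 0.31, adjusted p 0.00187). Tgif1, a repressor of TGF-β responses, rose from a median of 2.90 to 11.2 CPM (1.54 ± 0.30, adjusted p 0.00454) while Smad3 fell. Of 16 BCL2 family genes and 17 chemokine receptor genes none was called with one sign by edgeR, against 4.99% of all genes. At that share, lists this small may hold none. At an unadjusted p under 0.05, 1 BCL2 member was higher, and 1 chemokine receptor was higher and 1 lower, and DESeq2 called 1 BCL2 member and limma none of either list. Leaving out 1 library, up to 1 BCL2 member was called higher and up to 1 chemokine receptor lower.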
